A study of Mus musculus with 24 samples.

Results

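Aquaporins are membrane channels through which water, and in some members glycerol, crosses cell membranes. The aquaporins described here were the 8 genes Aqp1, Aqp3, Aqp4, Aqp5, Aqp7, Aqp8, Aqp9 and Aqp11, out of 18539 gene symbols on the array. They were set by gene name, with earlier results of these data known. A probe was a member when its accession belonged to 1 of these genes, which gave 12 of the 41174 probes. The 4 other aquaporin genes with a probe, Aqp2, Mip, Aqp6 and Aqp12, were not members and are described apart. Aqp1, Aqp3, Aqp5, Aqp7, Aqp8 and Aqp11 had 1 probe each, and Aqp4 and Aqp9 had 3 probes each, of which the brightest was used.

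The water-selective channels include Aqp1, the channel of red cells, kidney tubules and the endothelium of many vessels, Aqp4, the channel of astrocyte end-feet and fast muscle fibres, and Aqp5, the channel of gland and lung epithelium. Aqp3, Aqp7 and Aqp9 are aquaglyceroporins, which also carry glycerol, and Aqp7 is best known as the route by which glycerol leaves adipocytes and is also found in capillary endothelium. Aqp8 carries water and ammonia, and Aqp11 is a distant member found mainly in membranes inside the cell.

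Transcripts were measured on 24 single-colour oligonucleotide arrays, in 8 groups of 3 arrays, 1 array of each group in each of 3 trials. WT mice were C57BL/6J, and KO mice were homozygous for the tm1Poi deletion in Lgals3, which encodes galectin-3 (strain B6.Cg-Lgals3 tm1Poi/J). Male mice of both genotypes were given, from 8 weeks of age and for 8 weeks, either a high-fat diet (HFD, 60% of calories from fat) or chow (12% of calories from fat). Endothelial cells were sorted as live CD105+ CD45- cells from the aorta, cut out down to its division into the iliac arteries (from the arch in the labels, from the root in the methods), and from skeletal muscle of the hind limb, and RNA was amplified before labelling. Each array held RNA of pooled animals, 3 per pool in the methods and 3 to 4 in the series design, and the aorta and muscle arrays of a genotype, diet and trial came from the same pool. All 8 groups were male and on a C57BL/6 background, with KO and WT from separate stocks, and the KO mice lacked galectin-3 in all cells. The p-values for diet and genotype below therefore measure the spread between pools, and 3 pools per group limited their precision. The main test between the tissues does not use the pairing of aorta and muscle by pool.

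A level is given throughout as log2 of the background-subtracted intensity minus the 75th percentile of the same array, so a level of 0 is that of the 75th-percentile probe and a step of 1 is a factor of 2 in signal. Levels compare a probe between arrays and not a probe with another probe. The scanner software called 59.5% to 75.7% of an array's spots well above background, and the faintest such spot lay between -7.28 and -5.33 on the log2 scale. No aquaporin spot was saturated. Of 12 endothelial markers, 12 were well above background on every array of both tissues, as were 8 of 8 capillary markers. Other cell types were also visible: the summed level of the fibroblast list (7 genes) was 282 to 610 in the aorta and 23.2 to 221 in muscle, in multiples of the 75th-percentile signal, and that of the muscle fibre list (13 genes) was 1.91 to 10.1 in the aorta and 31.3 to 245 in muscle. In such sorted bulk samples, fewer cells of a type and less RNA per cell cannot be told apart.

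Some arrays stood apart by genotype, and this was examined before the aquaporins. Over the 19 probes that differed by more than 1 on the log2 scale between KO and WT, in the same direction, in all 8 pairs of trials 2 and 3, the position of an array on a scale from 0 (WT) to 1 (KO) was -0.06 to 0.08 for the other WT arrays and 0.89 to 1.05 for the other KO arrays. The arrays of trials 2 and 3 set both the probes and the ends of this scale, so only the arrays of trial 1 were placed independently. Its chow arrays lay at 0.08 and 0.07 for the WT and at 0.91 and 0.93 for the KO, aorta and muscle in turn. The HFD arrays of trial 1 lay between the genotypes, at 0.32 and 0.33 for the WT and at 0.43 and 0.44 for the KO. The KO minus WT differences of the members are therefore given with and without these 4 arrays, and genotypes are named as labelled. Pair counts, overlaps and exact tests use all arrays. The KO minus WT diet response was run without all of trial 1, but not without these 4 arrays alone. The signal of the Lgals3 probe itself was higher on the KO than on the WT array in 11 of 12 pairs, by 1.28 on the log2 scale (limma adjusted p = 0.304). Whether this probe lies in the deleted exons is not given in the sources used here, so its level did not check the labels.

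The promoters of Aqp1, Aqp7 and Aqp11, which were called higher in muscle, are shown beside that of Aqp5, whose measured level was higher in the aorta. Each window holds 300 bases across the transcription start in RefSeq (mouse build GRCm38.p6), 5′ to 3′ on the strand of the gene. Capitals mark a match on either strand to a GC box, spelled GGGCGG. They also mark matches to a TATA box, whose letters are TATAAA, and in the same way to a CACCC box, whose letters are its name. The windows are chr6:55336049-55336348 (plus strand) for Aqp1, chr4:41048087-41048386 (minus strand, the first of 2 annotated starts) for Aqp7, chr7:97738198-97738497 (minus strand) for Aqp11 and chr15:99590778-99591077 (plus strand) for Aqp5.
Aqp1: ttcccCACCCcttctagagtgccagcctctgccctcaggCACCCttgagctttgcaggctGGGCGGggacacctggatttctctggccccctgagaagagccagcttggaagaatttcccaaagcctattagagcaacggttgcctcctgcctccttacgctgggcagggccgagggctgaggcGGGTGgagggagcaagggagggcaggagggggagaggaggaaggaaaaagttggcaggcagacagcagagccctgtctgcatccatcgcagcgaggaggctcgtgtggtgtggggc
Aqp7: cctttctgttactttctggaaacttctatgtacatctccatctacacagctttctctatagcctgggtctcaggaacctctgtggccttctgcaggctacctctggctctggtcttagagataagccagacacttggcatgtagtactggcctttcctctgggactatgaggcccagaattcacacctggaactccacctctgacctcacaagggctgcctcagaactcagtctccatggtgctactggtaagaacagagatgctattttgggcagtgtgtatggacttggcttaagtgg
Aqp11: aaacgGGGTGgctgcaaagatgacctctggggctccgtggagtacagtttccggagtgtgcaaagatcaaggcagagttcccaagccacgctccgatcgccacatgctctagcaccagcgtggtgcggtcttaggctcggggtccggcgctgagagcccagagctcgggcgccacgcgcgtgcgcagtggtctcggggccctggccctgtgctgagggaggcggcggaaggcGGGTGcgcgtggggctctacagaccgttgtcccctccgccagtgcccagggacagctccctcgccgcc
Aqp5: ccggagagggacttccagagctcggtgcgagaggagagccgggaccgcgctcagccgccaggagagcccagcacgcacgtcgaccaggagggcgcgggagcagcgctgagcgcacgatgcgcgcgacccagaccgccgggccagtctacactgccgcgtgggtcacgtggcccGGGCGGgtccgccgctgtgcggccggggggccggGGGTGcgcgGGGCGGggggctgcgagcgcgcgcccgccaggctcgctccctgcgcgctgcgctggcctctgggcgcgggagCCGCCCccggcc
The Aqp1 window held 1 GC box and 3 CACCC boxes, with a GC content of 62.7%. The Aqp5 window held 3 GC boxes and 1 CACCC box and had a GC content of 79.7%. The Aqp11 window held 2 CACCC boxes at a GC content of 68.0%, and the Aqp7 window held none of the 3 motifs at a GC content of 49.7%, while that of its other start held 1 CACCC box at 55.0%. The windows of Aqp1, Aqp5 and Aqp11 all lay above 61.7%, the upper quartile of GC content among the 32851 mouse promoter windows of this length. Among all windows 35.7% held a GC box, 13.6% a TATA box and 57.5% a CACCC box, and the median GC content was 52.7%. These matches describe the letters of the windows only. In the RefSeq gene order Aqp5 lies between Aqp2 and Aqp6, members of its own family, on chromosome 15, and Aqp7 and Aqp3 lie close together on chromosome 4.

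Of the 8 aquaporins, Aqp1, Aqp7 and Aqp11 were well above background on all 24 arrays, Aqp3 on 23, Aqp8 on 22 and Aqp5 on 12, of which 11 were aorta arrays. Aqp9, the aquaglyceroporin of liver and leukocytes, was not well above background on any of the 24 arrays with any of its 3 probes. The brightest Aqp4 probe was well above background on 0 of 12 aorta arrays and on 4 of 12 muscle arrays, 2 WT chow and 2 WT HFD. Its muscle levels ran from -8.03 to -4.90 on the log2 scale, which spans the background limit. The other probes of Aqp4 were well above background on 3 and 2 muscle arrays, KO chow arrays among them, and on 1 aorta array each, so the 3 probes did not single out the same arrays. Neither Aqp4 nor Aqp9 met the condition for a test, which was 1 group or more, among those compared, with all of its arrays well above background.

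Aqp1 varied little within groups. In WT aortas its log2 level in trials 1, 2 and 3 was 5.34, 5.52 and 4.67 on chow and 4.62, 5.08 and 5.38 on HFD, and in KO aortas 5.30, 5.41 and 5.57 on chow and 4.29, 5.28 and 5.18 on HFD. In WT muscle it was 6.16, 6.12 and 6.05 on chow and 5.48, 6.36 and 5.97 on HFD, and in KO muscle 6.26, 6.45 and 6.31 on chow and 6.12, 6.75 and 6.08 on HFD. The muscle arrays lay above the aorta arrays within each genotype and diet, and the 8 group means fell in an order, from KO chow muscle (6.34 ± 0.10, SD, n = 3) down to KO HFD aorta (4.92 ± 0.55, SD, n = 3), in which every group overlapped its neighbour.

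Aqp7 varied more. Its log2 level in WT aortas was 2.54, 3.35 and 2.07 on chow and 1.52, 2.16 and 2.99 on HFD, and in KO aortas 3.78, 3.38 and 3.15 on chow and 2.01, 2.75 and 2.91 on HFD. In WT muscle it was 3.63, 4.16 and 3.88 on chow and 4.51, 4.94 and 4.21 on HFD, and in KO muscle 3.89, 4.15 and 3.84 on chow and 4.57, 5.81 and 4.22 on HFD. The order of the group means was KO HFD muscle (4.87 ± 0.83, SD, n = 3), WT HFD muscle (4.55 ± 0.37), KO chow muscle (3.96 ± 0.16), WT chow muscle (3.89 ± 0.26), KO chow aorta (3.44 ± 0.32), WT chow aorta (2.65 ± 0.65), KO HFD aorta (2.56 ± 0.48) and WT HFD aorta (2.22 ± 0.74). Both HFD groups were thus at the top in muscle and at the bottom in the aorta. Neighbours in this order overlapped, apart from WT HFD and KO chow in muscle, and 3 arrays against 3 cannot give an exact permutation p below 0.1.

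Aqp11 ran higher on KO than on WT arrays. In WT aortas its log2 level was -0.18, 0.58 and -0.08 on chow and -0.79, -0.14 and 0.12 on HFD, and in KO aortas 1.97, 1.39 and 0.96 on chow and -0.18, -0.07 and 0.69 on HFD. In WT muscle it was 0.98, 0.49 and 0.60 on chow and 0.83, 0.78 and 0.05 on HFD, and in KO muscle 2.44, 1.88 and 1.52 on chow and 1.03, 1.72 and 1.58 on HFD. The highest group mean was that of KO chow muscle (1.94 ± 0.46, SD, n = 3) and the lowest that of WT HFD aorta (-0.27 ± 0.47), and every group overlapped its neighbour in the order.

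Aqp5 was measured mainly in the aorta. Its log2 level in WT aortas was -1.63, -2.32 and -1.45 on chow and 0.38, -1.60 and -2.45 on HFD. In KO aortas it was -5.55, -2.67 and -5.09 on chow, the first of these not well above background, and -1.23, -2.24 and -3.43 on HFD. In muscle the measured values ran from -8.95 to -6.29 and only 1 of 12 arrays, a WT HFD array, was well above background. The lowest 2 aorta values were both KO chow.

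**Figure D1:**
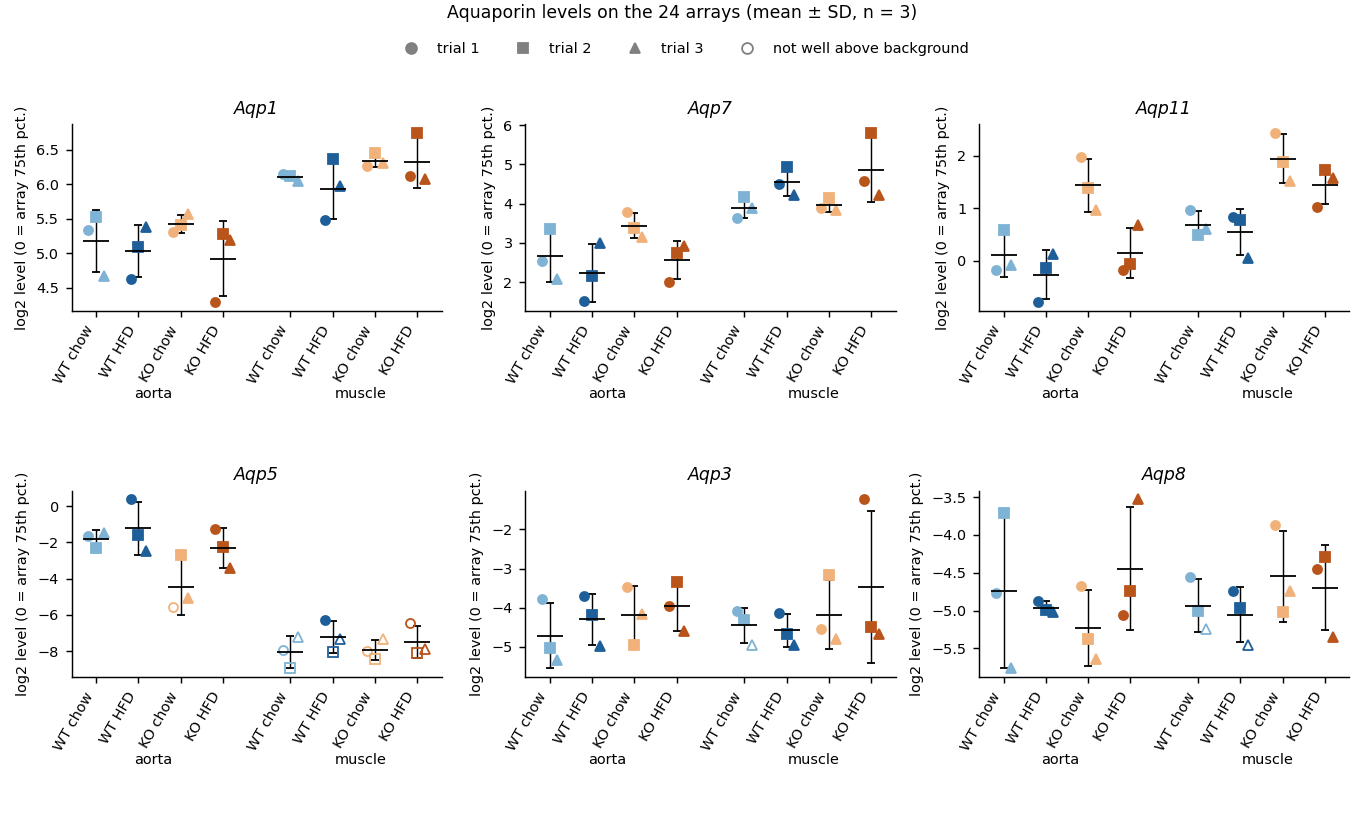
Log2 level relative to the 75th percentile of each array (y axis, a separate scale for each gene) of Aqp1, Aqp7, Aqp11, Aqp5, Aqp3 and Aqp8 on the 24 arrays in 8 groups (x axis); circles, squares and triangles are trials 1, 2 and 3, open symbols are not well above background, and lines show the mean ± SD of 3 arrays. Aqp1, Aqp7 and Aqp11 were well above background on every array, and the Aqp5 muscle arrays are open symbols with 1 exception.

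Aqp3 and Aqp8 were faint in both tissues. Aqp3, the glycerol channel of epidermis and kidney, ran from -5.34 to -3.34 in the aorta and from -4.95 to -1.23 in muscle on the log2 scale. The single muscle array at -1.23 was KO HFD of trial 1, and on that array the keratin gene Krt5 reached 1.65, its highest value on any array. Its part in the Aqp3 value was not tested. Aqp8 ran from -5.76 to -3.53 in the aorta and from -5.46 to -3.87 in muscle, so the tissues overlapped over most of their range.

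The first comparison asked which aquaporins differed between endothelial cells of a conduit artery and those of skeletal muscle. Aqp5 was higher in the aorta, and Aqp7, Aqp1 and Aqp11 were higher in muscle. With limma over all 24 arrays and the slide as a random block, 3 of the 5 members measured in both tissues passed an adjusted p of 0.05, where 28.2% of the 27387 probes tested did so. All 3 were higher in muscle, as were 16.7% of all probes tested, and 11.5% of all probes were higher in the aorta. Aqp5 entered the test only through the aorta, where it was bright, and is therefore described apart. The median of all probes tested was a difference of -0.27, aorta minus muscle on the log2 scale, and it was -0.0076 in the value table deposited by the authors. The share of called probes that were higher in the aorta was 40.7% here and 66.8% with that table, so the balance of directions over all probes depended on the scaling.

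Aqp5 had a mean log2 level of -2.44 in the aorta and a measured mean of -7.66 in muscle. Because its muscle signal was not well above background on 11 of 12 arrays, the fold is given as a bound. For each muscle array the higher of the faintest signal well above background and the probe's own value was taken. On that bound Aqp5 was at least 12.7-fold higher in the aorta. Within groups the bound was at least 21.9-fold in WT chow, at least 13.4-fold in KO HFD and at least 3.38-fold in KO chow, where 2 of 3 aorta arrays were well above background. It was the only member whose 12 aorta arrays did not overlap its 12 muscle arrays with the aorta higher, as was the case for 3.54% of 26753 probes. This describes the levels and is no test, since Aqp5 met the condition for a test only through the aorta. Of 8 epithelial markers, 3 were well above background on all 12 aorta arrays (Krt18, Krt5 and Krt14), and 3 were on all 12 muscle arrays. Epcam was well above background on 0 of 24 arrays and Cdh1 on 0 of 12 aorta arrays. Krt18, a keratin of simple epithelia that some endothelium also makes, ran from -1.19 to 2.49 in the aorta and from -3.67 to -1.66 in muscle. The mean log2 level over the epithelial list ran from -5.49 to -4.22 in the aorta and from -5.79 to -3.90 in muscle, so the tissues overlapped. The summed epithelial list was 0.92 to 6.02 in the aorta and 0.59 to 4.12 in muscle, and its part in the Aqp5 difference was not tested.

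Aqp7 was 1.60 lower in the aorta than in muscle on the log2 scale (limma SE 0.30, adjusted p = 0.00055), a fold of 3.03 in favour of muscle. Aqp1 was lower by 1.04 (limma SE 0.21, adjusted p = 0.0013), a fold of 2.06. Both differences exceeded the shift of all probes. The endothelial marker sums were also higher in muscle, from 137 to 431 in the aorta and from 420 to 666 in muscle, as did those of the capillary list, from 203 to 543 and from 423 to 772. Their part in the Aqp1 and Aqp7 differences was not tested. The Aqp1 difference, aorta minus muscle, was -0.93 for WT and -0.92 for KO on chow, and -0.91 for WT and -1.40 for KO on HFD, and aorta and muscle arrays did not overlap in any of these groups. For Aqp7 it was -1.24 for WT and -0.52 for KO on chow, and -2.33 for WT and -2.31 for KO on HFD, again with no overlap within a group, and was larger on HFD than on chow in both genotypes. Without trial 2 the Aqp1 difference was -1.01 with a limma adjusted p of 0.0689, while Aqp7 passed under all 12 alternatives.

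Aqp11 was lower in the aorta by 0.80 on the log2 scale (limma SE 0.27, adjusted p = 0.0312), and this call did not hold throughout. With the deposited value table it was -0.54 with a limma adjusted p of 0.164, without trial 1 it was -0.65 (0.123) and without trial 2 it was -0.81 (0.260). Leaving out the HFD arrays of trial 1 gave -0.74 (0.0615). For Aqp3 the difference was -0.13 (limma SE 0.50, adjusted p = 0.866) and for Aqp8 it was -0.04 (limma SE 0.35, adjusted p = 0.944), and both changed sign with the scaling. Of the family genes outside the chosen members, Aqp2, the vasopressin-regulated channel of the kidney collecting duct, was well above background on all 24 arrays and higher in the aorta by 0.64 (limma SE 0.21, adjusted p = 0.0292). Mip was well above background on 1 aorta and 5 muscle arrays, Aqp6 on 1 aorta array and no muscle array, and Aqp12 on 0 of 24.

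**Figure D2:**
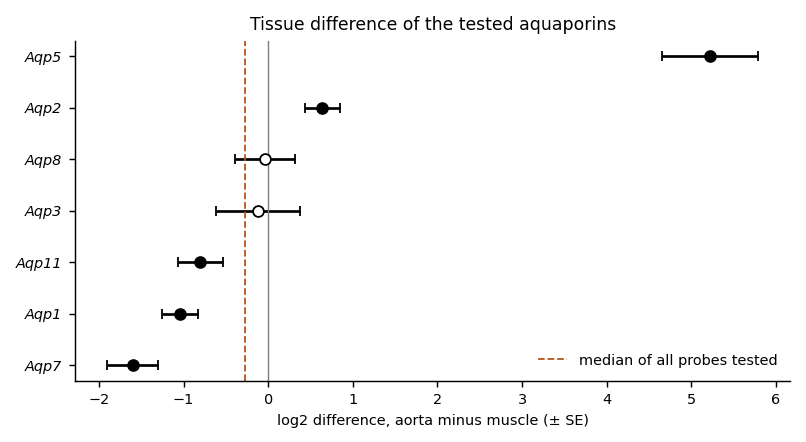
Difference between aorta and muscle (x axis, log2, aorta minus muscle, limma estimate ± SE over 24 arrays) for Aqp5, Aqp2, Aqp8, Aqp3, Aqp11, Aqp1 and Aqp7; filled points had an adjusted p under 0.05, open points did not, and the dashed line is the median of all probes tested. Aqp5 stands at 5.22, a measured difference against a muscle signal not well above background. It entered the test only through the aorta, so its filled point is not read as a call. Aqp7, Aqp1 and Aqp11 lie left of the median line at -0.27.

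Genes that work with these channels were described from fixed lists. Of 11 genes of glycerol release and use, 3 were higher in the aorta and 4 in muscle, where 11.5% and 16.7% of all probes were, with a median difference of -0.64 beside -0.27 for all probes. Plin1, which coats lipid droplets of adipocytes, was higher in the aorta by 3.74 (limma adjusted p = 0.0011), as were Gpd1, which makes glycerol 3-phosphate, by 3.47 (0.0011), and G0s2, an inhibitor of triglyceride lipase, by 1.21 (0.0060). The lipase genes Lipe (-1.46, limma adjusted p = 0.0102) and Mgll (-0.70, 0.0037) were higher in muscle, as were Lpl (-0.92, 0.0076) and Gpihbp1 (-0.93, 0.0047), which holds lipoprotein lipase on capillary endothelium. The list thus moved in both directions beside Aqp7. These differences are means over both diets. Summed adipocyte marker levels were 154 to 509 in chow aortas, 30.7 to 53.2 in HFD aortas and 35.0 to 138 in muscle, and their part was not tested.

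Of 12 genes of cell volume and ion transport 11 were tested, and 4 were higher in muscle and 0 in the aorta, beside 16.7% and 11.5% of all probes (median -0.98, beside -0.27): the volume-regulated anion channel Lrrc8a (-0.98, limma adjusted p = 0.0018), the kinase Wnk1 (-1.01, 0.0274) and the carbonic anhydrases Car2 (-1.76, 0.0170) and Car4 (-1.29, 0.0165). Of 4 genes of urea and ammonia transport 3 were tested and 0 passed, with a median of -0.13. Lists and members were measured on the same arrays, on which fibroblast and muscle fibre markers also differed, and their part in these differences was not tested.

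The second comparison asked whether 8 weeks of HFD changed the aquaporins within a tissue, with HFD and chow compared within each trial. No aquaporin passed the test in any diet comparison. In limma, adjusted over all probes, 0 of 6 members tested were called in the aorta of WT (0.0% of 25865 probes; 1493 probes had an unadjusted p under 0.05) and 0 of 6 in the aorta of KO (0.0%; 2910). Over both genotypes 0 of 6 were called in the aorta, where 0.0309% of probes were (8 probes; 3913 unadjusted). In muscle 0 of 5 members tested were called in WT (0.0% of 25682 probes; 3098 unadjusted), 0 of 5 in KO (0.00389%, which is 1 probe; 2181 unadjusted) and 0 of 5 over both genotypes (0.288%, which is 74 probes; 4205 unadjusted). The methods' t-test also called 0 members, and it called 0 of the 25557 to 25764 probes of any tissue and genotype. In 0 of 32 sets of a member, tissue and genotype did all 3 HFD to chow ratios pass 1 on the log2 scale in 1 direction. These sets include Aqp4, Aqp9 and Aqp5 in muscle, which were mostly not well above background. The share of all probes meeting this rule was not computed.

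Aqp7 came nearest in muscle. The HFD minus chow difference of its log2 level was 0.87, 0.78 and 0.33 for WT pools and 0.68, 1.66 and 0.38 for KO pools in trials 1, 2 and 3, so HFD was higher in 6 of 6 pairs. All 6 pairs were higher for 5.63% of the probes of muscle. The mean difference was 0.78 (SE 0.21, limma p = 0.0075, adjusted p = 0.162), a fold of 1.72, and the exact sign-flip permutation p was 0.03125, which is the smallest that 6 pairs can give. With the slide as the block, since a slide held all 4 groups of a tissue and trial, the limma adjusted p was 0.0853. In KO alone the difference was 0.91 (limma SE 0.30, unadjusted p = 0.0188, adjusted p = 0.527) and in WT alone 0.66 (adjusted p = 0.437).

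In the aorta Aqp7 pointed the other way, with HFD minus chow differences of -1.02, -1.18 and 0.92 for WT and of -1.77, -0.62 and -0.24 for KO. HFD was lower in 5 of 6 pairs, and the mean of -0.65 (limma SE 0.35, adjusted p = 0.423, exact sign-flip permutation p = 0.156) was within the spread of the pairs. The difference between the tissues in this diet response, aorta minus muscle, was -1.44 on the log2 scale (limma SE 0.43, unadjusted p = 0.0073, adjusted p = 0.352), and the exact permutation p of 6 against 6 differences was 0.0130. Since aorta and muscle came from the same pools, the differences are paired, and a sign-flip permutation test that keeps the pairs, added after the values had been seen, gave an exact p of 0.0625 with the aorta lower in 5 of 6 pairs. No probe was called in this comparison (0.0% of 27387; 2530 unadjusted in limma) and no member was.

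Adipocyte marker levels ran lower on HFD in the aorta. Of 12 adipocyte markers 11 had a probe and 10 were well above background on all aorta arrays, while Lep was on none. The summed adipocyte level in the aorta was 154 to 218 in WT chow and 161 to 509 in KO chow, and 30.7 to 43.8 in WT HFD and 36.9 to 53.2 in KO HFD. In muscle, where 8 of the 11 were well above background on all arrays, it was 47.8 to 66.2 for WT and 75.4 to 138 for KO on chow, and 35.0 to 68.0 for WT and 45.8 to 70.6 for KO on HFD. Adipoq, the adiponectin gene of adipocytes, ran from 2.07 to 5.48 in chow aortas, from -4.39 to 0.11 in HFD aortas and from -2.22 to 1.34 in muscle. Chow and HFD aortas did not overlap in either measure. Endothelial markers also ran lower in HFD aortas, with a summed level of 137 to 303 against 208 to 431 in chow aortas, and were 420 to 666 in muscle. The part of adipocyte or endothelial content in the Aqp7 differences was not tested. Erythroid markers, which matter for Aqp1, had a summed level of 4.73 to 49.6 in the aorta and 11.6 to 68.0 in muscle, with Hba-a1 between 1.97 and 5.53 in the aorta and between 3.43 and 6.05 in muscle, and their part was not tested.

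**Figure D3:**
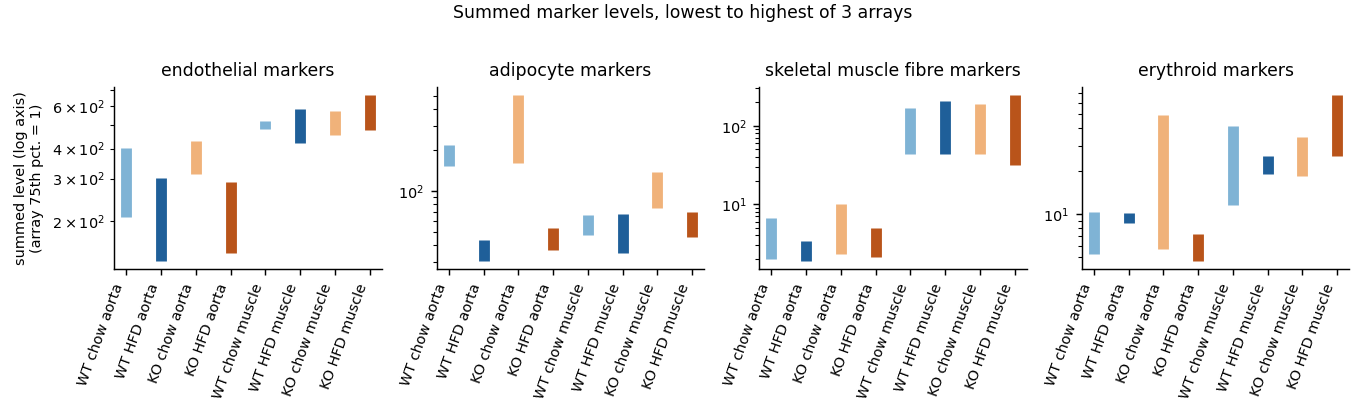
Summed level of the endothelial, adipocyte, skeletal muscle fibre and erythroid marker lists (y axis, multiples of the 75th-percentile signal of the array, log axis) in the 8 groups (x axis), each bar running from the lowest to the highest of 3 arrays. The adipocyte sums of the aorta lie at 154 or above on chow and at 53.2 or below on HFD.

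Aqp11 was the other aquaporin with a low unadjusted p for diet. In KO aortas its HFD minus chow difference was -2.15, -1.46 and -0.28, with a mean of -1.29 (limma SE 0.41, unadjusted p = 0.0167, adjusted p = 0.392). Over both genotypes it was -0.84 (limma SE 0.29, unadjusted p = 0.0244, adjusted p = 0.273), lower on HFD in 5 of 6 pairs. Aqp5 in KO aortas was higher on HFD by 4.32, 0.44 and 1.66, with a mean of 2.14 (limma SE 0.82, unadjusted p = 0.0367, adjusted p = 0.432), and the first of these differences starts from a chow array that was not well above background. Trial 1 held the largest single difference for both genes, and its HFD arrays were the 4 that lay between the genotypes on the scale given above. With a trial left out the Aqp5 difference in KO ran from 1.05 to 2.99, and over both genotypes the difference of 1.36 was 0.45 without trial 1. Aqp1 differed with diet by -0.33 in the aorta (limma SE 0.25, adjusted p = 0.569) and by -0.10 in muscle (limma SE 0.18, adjusted p = 0.814), less than the spread between trials. In none of the glycerol, ion transport and urea lists was a gene called for diet. The largest difference was that of Plin1 in the aorta, -3.24 with a limma adjusted p of 0.0705, and the median of the glycerol list on HFD was -0.52 in the aorta and -0.30 in muscle, beside 0.012 and -0.0080 for all probes.

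**Figure D4:**
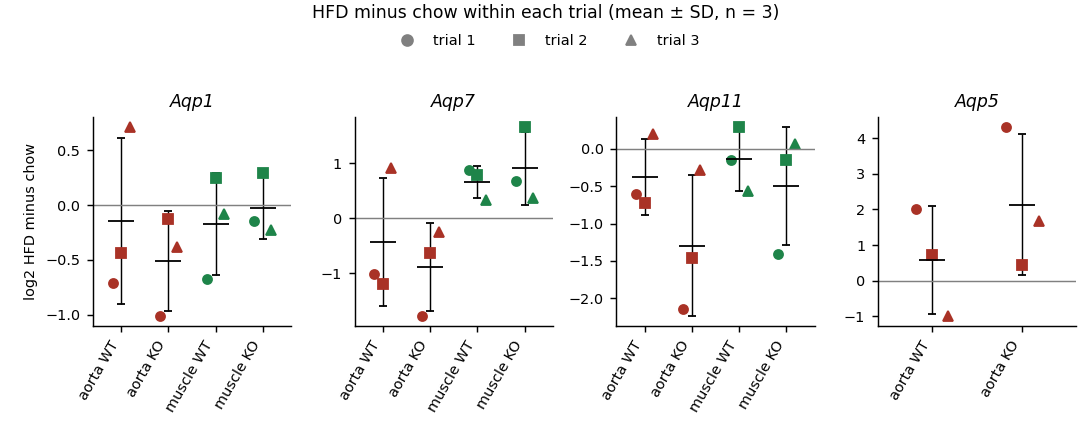
HFD minus chow difference in log2 level (y axis) in each of 3 trials (points) for Aqp1, Aqp7 and Aqp11 in WT and KO aorta (red) and muscle (green), and for Aqp5 in the aorta. The 6 muscle points of Aqp7 lie between 0.33 and 1.66, and 5 of its 6 aorta points lie below 0.

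The third comparison asked whether the aquaporins or their response to HFD differed between KO and WT. KO and WT were separate stocks and held different positions on every slide, so stock and position cannot be told apart from loss of galectin-3. No aquaporin was called in either tissue, and Aqp11 was the member that leaned most to 1 genotype. In limma 0 of 6 members were called between KO and WT in the aorta, where 0.0116% of probes were (3 probes; 878 unadjusted), and 0 of 5 in muscle, where 0.0% were (839 unadjusted). For the difference between KO and WT in the diet response, 0 members and 0.0% of probes were called in both tissues, with 677 probes at an unadjusted limma p under 0.05 in the aorta and 1059 in muscle. In simulated data this test recovered 0 of 67 added differences of 2 on the log2 scale and 0 of 66 of 3 in the aorta. In muscle it recovered 7 of 67 and 30 of 66. The lack of calls therefore does not show that the diet response was equal in both genotypes.

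The KO minus WT difference of Aqp11 in log2 level, in trials 1, 2 and 3, was 2.15, 0.81 and 1.04 on chow and 0.61, 0.07 and 0.57 on HFD in the aorta. It was 1.46, 1.39 and 0.91 on chow and 0.21, 0.94 and 1.53 on HFD in muscle. The KO array was the higher one in 12 of 12 pairs, as was the case for 0.243% of 26753 probes. In muscle the 6 KO arrays, from 1.03 to 2.44, did not overlap the 6 WT arrays, from 0.05 to 0.98, and 0.0982% of the probes of muscle were so separated with KO higher. All 6 pairs were higher in KO for 3.49% of probes in muscle and for 2.55% in the aorta. In the aorta the groups overlapped, because the HFD arrays of KO came down to the WT range.

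The mean difference of Aqp11 was 1.07 in muscle (limma SE 0.23, unadjusted p = 0.00074, adjusted p = 0.480), with an exact permutation p of 0.00216, the smallest that 6 against 6 arrays can give. With the trial and slide as a block the limma adjusted p was 0.363, and without the HFD arrays of trial 1 the difference was 1.25 (adjusted p = 0.303). In the aorta it was 0.87 (limma SE 0.28, unadjusted p = 0.0092, adjusted p = 1.00, exact permutation p = 0.0455). With the block the limma adjusted p was 0.930, and without the HFD arrays of trial 1 the difference was 0.83. Taken over both tissues, a contrast added after the values had been seen, KO was higher by 0.97 (limma SE 0.22, unadjusted p = 0.00025, adjusted p = 0.210), a fold of 1.97, where 0.0803% of probes were called (22 probes; 593 unadjusted). Averaged per animal pool, the exact permutation p of 6 against 6 pools was 0.00433. With the animal pool as the random block and without the HFD arrays of trial 1 the limma adjusted p was 0.336 (difference 1.04). With the slide as the random block in its place, on all arrays, the limma adjusted p was 0.0116. That block treats the aorta and muscle arrays of a pool as independent, though they share animals, so this value is not read as a call.

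Aqp5 ran the other way in the aorta. KO was lower than WT in 6 of 6 pairs, as for 1.92% of probes, with a mean difference of -1.86 on the log2 scale (limma SE 0.62, unadjusted p = 0.0119, adjusted p = 1.00), and the exact permutation p was 0.0519. Without the HFD arrays of trial 1 it was -1.72. The pair differences were -3.93, -0.35 and -3.64 on chow and -1.62, -0.64 and -0.98 on HFD. The mean level was -1.80 ± 0.46 (SD, n = 3) for WT and -4.44 ± 1.55 for KO on chow, where 2 of 3 KO arrays were well above background. On HFD it was -1.22 ± 1.45 for WT and -2.30 for KO, with KO arrays from -3.43 to -1.23, so the groups lay closer. Aqp1 was higher in KO muscle in 6 of 6 pairs but only by 0.31 (limma SE 0.20, exact permutation p = 0.0693). Aqp7 was higher in KO by 0.56 in the aorta (limma SE 0.32, exact permutation p = 0.154) and by 0.19 in muscle (limma SE 0.27, exact permutation p = 0.647), within the spread between pools. For Aqp3 and Aqp8 the KO minus WT difference lay between 0.01 and 0.70 in both tissues, with exact permutation p-values of 0.175 or above. The 0.70 was that of Aqp3 in muscle, which was 0.25 without the HFD arrays of trial 1. Without those arrays Aqp1 was 0.12 and 0.24, Aqp7 0.52 and 0.25 and Aqp8 0.19 and 0.39 in aorta and muscle in turn, and Aqp3 was 0.57 in the aorta. In none of these 3 lists was a gene called for genotype.

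**Figure D5:**
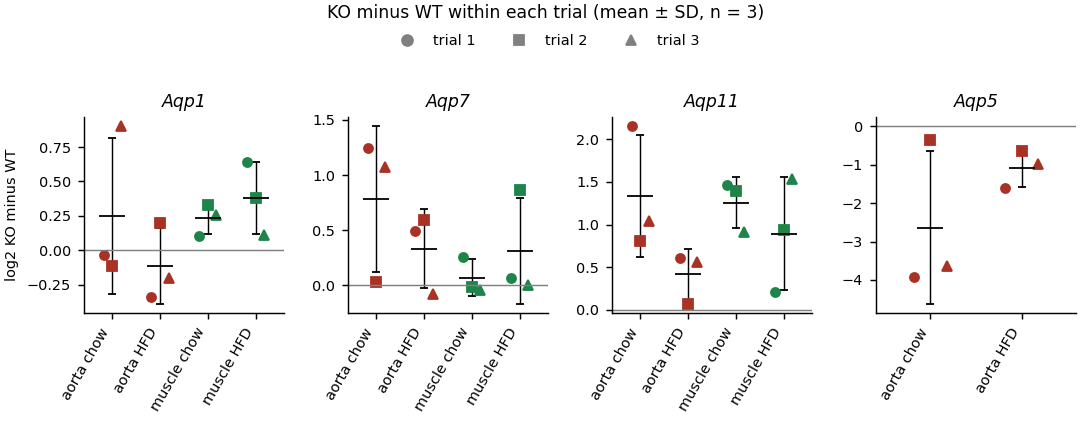
KO minus WT difference in log2 level (y axis) in each of 3 trials (points) for Aqp1, Aqp7 and Aqp11 on chow and HFD in aorta and muscle, and for Aqp5 in the aorta. All 12 Aqp11 points lie above 0, between 0.07 and 2.15, and the 6 Aqp5 points lie below 0.

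The genes whose level ran most like that of an aquaporin over the 12 arrays of a tissue were listed by Pearson's r. These arrays share pools, slides and diet groups, and r is given as a description. In the aorta Aqp7 ran with Sox18 (r = 0.98), a transcription factor of endothelium, and with Afap1l1 (0.98) and Tmem88 (0.97). Aqp1 ran there with Adam15 (r = 0.92), Spns2 (0.92), which exports sphingosine 1-phosphate from endothelium, and Smagp (0.91). The neighbours of Aqp11 were Fbxo7 (r = 0.97), Thrsp (0.96), a gene of lipid synthesis in adipose tissue, and Lnx1 (0.96). The faint Aqp3 ran in the aorta with Proc (r = 0.96), Gata1 (0.95) and Cst3 (0.94). For Aqp8, also faint, they were Grk6 (r = 0.90), Ube2j1 (0.83) and Apln (0.82). In muscle the lists were different by name: Aqp1 ran with the ribosomal protein genes Rpl23 (r = 0.96), Rplp1 (0.96) and Rpl26 (0.95), Aqp7 with Banf1 (0.97), Me2 (0.96) and Acot7 (0.96), and Aqp11 with Rb1 (0.92), Fam117b (0.91) and Dnaja4 (0.91). The search covered 16685 probes in the aorta and 16599 in muscle.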

How the data were processed

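RNA of sorted endothelial cells was hybridised to 24 single-colour Agilent Whole Mouse Genome arrays (Cy3). The authors scanned them and deposited, per the file headers, Feature Extraction tables of spot intensity with local background subtracted and spatial detrending within each array, and a value table in log2. The deposited log2 values differed from those used here by a constant on each array, 11.95 to 12.25. Their column medians were 7.96 to 8.48, and how the constant was set is not given in the sources used here. Scale and direction were thus settled and the centring was not. Probes were named through the RefSeq table (GRCm38.p6), which gave a symbol to 27198 of 41174 probes. Coordinates of probes are not given.

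From the processed intensity, log2 values minus the 75th percentile of the array were computed, control and outlier spots left out. The 75th percentile was 2390 to 5938 intensity units. A probe was tested where all arrays of 1 or more of the groups compared were well above background, with limma 3.58.1 (R 4.3.3), Benjamini-Hochberg adjusted over all probes tested, threshold 0.05. Diet was tested within genotype and trial, as in the study's methods, which take HFD to chow ratios per trial. Genotype was tested unpaired, and tissue with the slide as a random block (correlation 0.280). Each of 6 slides held 1 tissue and trial with all 4 groups. KO arrays were always at positions 1 and 3 of a slide and WT arrays at positions 2 and 4. HFD arrays were at positions 3 and 4 in trial 1 and at positions 1 and 2 in trials 2 and 3. Trial 1 was scanned in 1 session and trials 2 and 3 in another. Position entered no test. Deviations from the group means of same-numbered HFD and chow arrays correlated at 0.009 to 0.456, those of KO and WT arrays at 0.062 to 0.619, and those of aorta and muscle of a pool, which the design pairs, at 0.069 to 0.400. Exact permutation tests were 2-sided. Named genes were the members, the other family genes, Lgals3 and the fixed lists, each by its brightest probe. For likeness, the 3 genes of highest Pearson's r were named. Results of 1 list are not reported here. The fit was tested on simulated data. There, 0 of 67 added diet differences of 1 on the log2 scale were recovered within a genotype in either tissue. Members, lists and tests were chosen with earlier results of these data known. Alternatives tried were normexp (offset 50), the deposited table, quantile normalization, other probe filters, outlier spots, blocks, the methods' t-test and leaving out each trial.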

Additional observations from a re-analysis of the deposited data

Results flagged for a closer look

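The response of Aqp7 to HFD differed between the tissues by -1.44 on the log2 scale, aorta minus muscle, over both genotypes. It was listed because an exact permutation test of the 6 aorta against the 6 muscle HFD minus chow differences gave p = 0.0130. Aorta and muscle came from the same pools, and with that pairing, added after seeing the data, the exact sign-flip permutation p was 0.0625, so the difference did not pass. The muscle difference was higher on HFD in 6 of 6 pairs and the aorta difference lower in 5 of 6. In limma over all probes the same value had an adjusted p of 0.352, and of 0.182 with the slide as a block, so it did not pass there. Over the alternatives the value ran from -2.15 to -1.07 and the limma adjusted p from 0.182 to 0.883. Summed adipocyte marker levels were also lower on HFD in the aorta, at 53.2 or less beside 154 or more on chow, and their part in this value was not tested. It was 1 of 24 exact tests, of 8 members in 3 comparisons of diet responses, which were also run for 5 further genes. Not all of these could have been listed. The KO minus WT comparisons set 3 differences against 3 and cannot give a p under 0.1. Listing also required 6 or more arrays well above background in each tissue, which Aqp4, Aqp5 and Aqp9 did not meet.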

How the results depend on the processing

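Aqp7 kept its direction and its call between the tissues under the 12 alternatives run, from -1.77 to -1.34 on the log2 scale. Aqp5 was tested only through the aorta arrays and its measured difference, 3.04 to 5.67, carries no such reading. The losses of the Aqp1 and Aqp11 tissue calls are given in the report. No member was called for diet or genotype under any alternative, with 1 exception, Aqp11 over both tissues with the slide as a random replicate block. That block ignores that aorta and muscle arrays share pools, so the exception is not read as a call. Leaving out the HFD arrays of trial 1, the contrast over both tissues with its alternatives, and the paired exact test of the Aqp7 diet response between tissues were chosen after seeing the data. The cause of the changes below was not tested.

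Counts of called probes moved as follows. The tissue count of 7715 was 12630 with no slide block and 15402 with the animal pool as a replicate block. It was 2987 to 7218 with a trial left out, with 2 to 4 members called, Aqp5 counted among them. The count for the difference of diet response between tissues, 0, was 14 with normexp, 6 with quantile normalization, 25 for probes well above background on every array and 15 with a replicate block by slide. In the aorta, WT diet counts (0) were 2 with normexp, 2 on every array, 4 with no replicate block and 2 with the block by slide. Those of KO (0) were 4, 5, 7 and 4 in the same order. Those over both genotypes (8) were 55, 41, 50 and 57, and 5 with no filter, and 0 to 0 with a trial left out. In muscle, WT diet counts (0) were 8 with normexp, 29 on every array and 1 with no replicate block. Those of KO (1) were 5, 2 and 4, and 4 with the block by slide, 0 by the methods' t-test and 0 to 0 with a trial left out. Those over both genotypes (74) were 221 with normexp, 1 with no filter, 247 on every array and 274 with the block by slide, and 0 to 0 with a trial left out. Counts for KO against WT in the aorta (3) were 8 with normexp, 1 with quantile normalization, 1 with no filter, 0 on every array, 1 with the replicate block by trial and slide, 8 without the HFD arrays of trial 1 and 0 to 3 with a trial left out. In muscle (0) they were 19 without the HFD arrays of trial 1 and 0 to 2 with a trial left out. Over both tissues (22) they were 11 on every array, 69 with the replicate block by slide (random), where 1 member was called, and 0 to 14 with a trial left out. The block changed no other call of a member.

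Uncalled member differences changed sign as follows. Between the tissues Aqp3 was 0.14 with the deposited table and 0.23 without the HFD arrays of trial 1, and Aqp8 was 0.043, 0.23 and 0.069 with quantile normalization, the deposited table and without those arrays, and -0.16 to 0.16 with a trial left out. For the difference of diet response between tissues Aqp3 was -0.090 with normexp, -0.049 with quantile normalization and -0.97 to 0.97 with a trial left out, and Aqp8 -0.29 to 0.98. KO minus WT of Aqp8 in the aorta was -0.041 with quantile normalization. With normexp the diet difference of Aqp1 in KO muscle was 0.025 and the KO minus WT diet response of Aqp8 in muscle 0.028. With a trial left out, the aorta ranges were, for diet in WT, Aqp1 -0.58 to 0.14, Aqp5 -0.14 to 1.36 and Aqp8 -0.69 to 0.32, for diet in KO, Aqp3 -0.46 to 0.58, for diet over both genotypes, Aqp3 -0.12 to 0.59 and Aqp8 -0.29 to 0.59, for the KO minus WT diet response, Aqp1 -0.70 to 0.0048 and Aqp3 -0.67 to 0.11, and for KO minus WT, Aqp1 -0.073 to 0.20 and Aqp8 -0.38 to 0.37. The muscle ranges were, for diet in WT, Aqp1 -0.38 to 0.081 and Aqp11 -0.35 to 0.073, for diet in KO, Aqp1 -0.19 to 0.076, Aqp3 -0.59 to 1.73 and Aqp8 -0.59 to 0.077, for diet over both genotypes, Aqp1 -0.28 to 0.057, Aqp3 -0.38 to 0.85 and Aqp8 -0.39 to 0.0033, and for the KO minus WT diet response, Aqp1 -0.047 to 0.29, Aqp3 -0.42 to 1.75, Aqp7 -0.076 to 0.46, Aqp8 -0.39 to 0.15 and Aqp11 -0.85 to 0.085. Signal over background limits Aqp9 (well above it on 0 of 24 arrays), Aqp4 (on 0 of 12 aorta and 4 of 12 muscle arrays) and Aqp5 in muscle (on 1 of 12) most.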
